A study of Rattus norvegicus with 53 samples.

Results

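The genes described here are 6 that mark neutrophils and their granules, S100a8, S100a9, Csf3r, Mmp8, Lcn2 and Camp, in blood mononuclear cells that had been cultured with different sera. They were taken by gene symbol from the array annotation, in which each had 1 probe set, so they are 6 of 31042 probe sets tested and 6 of 14217 genes named by a single symbol. Il1r2, also with 1 probe set, was followed beside them. Expression was measured on 53 Affymetrix arrays, as log2 expression per probe set. Peripheral blood mononuclear cells (PBMCs) of healthy male Brown Norway (BN) rats, 180 days old, were separated on a density gradient and cultured for 6 h with 20% serum or plasma, the design text and the sample titles using different words for it.

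The sera formed 8 groups. Of the BioBreeding (BB) rat, the lymphopenic line DRlyp/lyp becomes diabetic and the line DR+/+ does not. In 6 cultures the serum came from d40 DRlyp/lyp rats given human IL-1RA, the antagonist of the interleukin-1 receptor, at 350 ug/kg/day for 10 days from day 30, and in 6 it came from d40 DRlyp/lyp rats given PBS. In 4 cultures d60 DRlyp/lyp serum was supplemented with IL-1RA, in 4 it was used alone, and 4 received d60 DR+/+ serum. Autologous BN serum was supplemented with IL-1B in 4 cultures, 15 received allogeneic BN serum, meaning serum of other BN rats, and 10 received autologous BN serum, that of the cell donor. For the d40 IL-1RA arrays the source label describes IL-1RA added to serum whereas the design text describes treated rats, and the design text was followed. The cells were of the BN strain in every group, so the sera were read out in cells of another strain than the BB donors. Whether the replicates of a group are separate animals or separate cultures is not stated, so p-values measure the spread between samples, which may be technical.

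Neutrophils carry antimicrobial proteins in granules that form in sequence during their maturation in the marrow, first azurophil and then specific and gelatinase granules. Granulocytes are denser than lymphocytes and monocytes, and a density gradient is meant to remove them from PBMCs, so transcripts of these genes in PBMCs are read as a sign of granulocytes left behind, although monocytes also make some of them. S100a8 and S100a9 encode the calgranulins, calcium-binding proteins that pair as calprotectin in the cytosol of neutrophils and monocytes. Csf3r encodes the receptor of granulocyte colony-stimulating factor (G-CSF). Mmp8, a collagenase, Lcn2, a lipocalin that binds bacterial siderophores, and Camp, the cathelicidin antimicrobial peptide precursor, are stored in specific granules. Il1r2 encodes the decoy receptor of interleukin-1, which binds the cytokine without signalling and is known from neutrophils and monocytes. In a bulk culture fewer cells of a type and less RNA per cell cannot be told apart.

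Promoters are shown for the 4 genes whose levels went together in the results below, S100a9 with Csf3r in one set of arrays and S100a9 with Lcn2 and Camp in the other. Each window spans 300 bases, most of them before the gene start, and RefSeq's promoter table (GRCr8) held 5 of the 6 genes, without S100a8. The window of S100a9 was chr2:178490573-178490872 (minus strand), that of Csf3r chr5:143582970-143583269 (plus strand), that of Lcn2 chr3:36081731-36082030 (minus strand) and that of Camp chr8:118721949-118722248 (minus strand). Capitals mark matches to the letters TATAAA of the TATA box and TTNNGNAA of C/EBP, a family of factors of myeloid cells, on either strand.
S100a9: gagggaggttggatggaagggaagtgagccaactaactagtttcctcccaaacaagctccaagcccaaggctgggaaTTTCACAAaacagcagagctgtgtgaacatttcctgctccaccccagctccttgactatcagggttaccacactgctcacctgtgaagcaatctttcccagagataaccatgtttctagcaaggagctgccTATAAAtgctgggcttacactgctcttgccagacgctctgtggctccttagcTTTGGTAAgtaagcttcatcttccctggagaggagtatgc
Csf3r: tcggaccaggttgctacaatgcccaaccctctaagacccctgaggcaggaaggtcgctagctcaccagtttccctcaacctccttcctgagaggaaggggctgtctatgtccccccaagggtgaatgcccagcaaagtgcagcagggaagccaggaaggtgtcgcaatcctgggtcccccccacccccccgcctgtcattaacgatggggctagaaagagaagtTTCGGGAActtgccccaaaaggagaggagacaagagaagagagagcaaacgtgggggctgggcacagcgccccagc
Lcn2: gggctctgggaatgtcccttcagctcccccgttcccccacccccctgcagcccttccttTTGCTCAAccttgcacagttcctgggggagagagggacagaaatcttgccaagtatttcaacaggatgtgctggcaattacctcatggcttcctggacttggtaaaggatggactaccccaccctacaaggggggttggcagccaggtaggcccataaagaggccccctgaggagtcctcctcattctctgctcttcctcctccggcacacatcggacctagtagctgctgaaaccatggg
Camp: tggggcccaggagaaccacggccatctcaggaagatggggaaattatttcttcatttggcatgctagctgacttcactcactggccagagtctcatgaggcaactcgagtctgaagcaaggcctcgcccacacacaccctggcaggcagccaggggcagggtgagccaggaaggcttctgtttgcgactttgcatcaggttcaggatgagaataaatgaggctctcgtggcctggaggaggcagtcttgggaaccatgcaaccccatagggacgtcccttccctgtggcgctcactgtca
The window of S100a9 held 1 match to TATAAA and 2 to TTNNGNAA, those of Csf3r and Lcn2 held 1 each to TTNNGNAA, and that of Camp held neither. Of 33469 rat promoters of the same length, 14.2% held TATAAA and 41.3% held TTNNGNAA, so the second is common. The letters GAGGAA, bound by PU.1, stood once in each of the windows of S100a9, Csf3r and Lcn2 and in 27.6% of all promoters. The letters CCAAT (37.5% of promoters) and the 10-letter pattern searched for NF-kappaB (1.53% of promoters) were in none of the 4 windows. Other forms of the NF-kappaB site were not searched for, so the windows may hold such sites. No capitals of one motif overlapped those of another. S100a8 and S100a9 lie on chromosome 2 with 0 protein-coding genes between them in the same annotation.

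The arrays fell into 2 sets that the labels do not describe, and the sets are kept apart throughout. The first set held 21 arrays, with d40 serum of IL-1RA rats (6), d40 serum of PBS rats (6), allogeneic serum (replicates 1 to 3) and autologous serum (replicates 1 to 6). The second set held 32 arrays, with d60 DRlyp/lyp serum plus IL-1RA (4), d60 DRlyp/lyp serum (4), d60 DR+/+ serum (4), autologous serum plus IL-1B (4), allogeneic serum (replicates 4 to 15) and autologous serum (replicates 7 to 10). Serum age and array set cannot be told apart between d40 and d60 sera. The 3′ minus 5′ actin difference (log2), larger in degraded RNA, averaged 3.58 ± 0.759 (SD, n = 21) in the first set and 2.58 ± 0.402 (SD, n = 32) in the second. The T-cell genes of PBMCs were present in every array, the mean log2 value of 8 T-cell markers running from 8.84 to 9.60 in the first set and from 8.11 to 9.49 in the second.

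The 6 genes did not share one level. Over the 53 arrays the mean log2 value was above the median probe set for 2 of them, S100a8 at 5.64 and S100a9 at 7.03, and for Il1r2 at 7.84, where the median of all probe sets was 5.46. The means were below that median for Csf3r (4.88), Camp (4.76), Lcn2 (4.24) and Mmp8 (3.48), and 10.5% of probe sets had a lower mean than Mmp8. RMA values near background understate differences, so small ranges of Mmp8, Lcn2 and Camp say little about these transcripts. The 3 genes measured from the list for azurophil granules were below the median too, Defa5 only just. Of 7 listed, the annotation named the defensins Np4, Defa5 and RatNP-3b, whose mean log2 values were 3.75, 5.42 and 3.22, and the myeloperoxidase and neutrophil protease genes of that list were not analysed here.

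**Figure D1:**
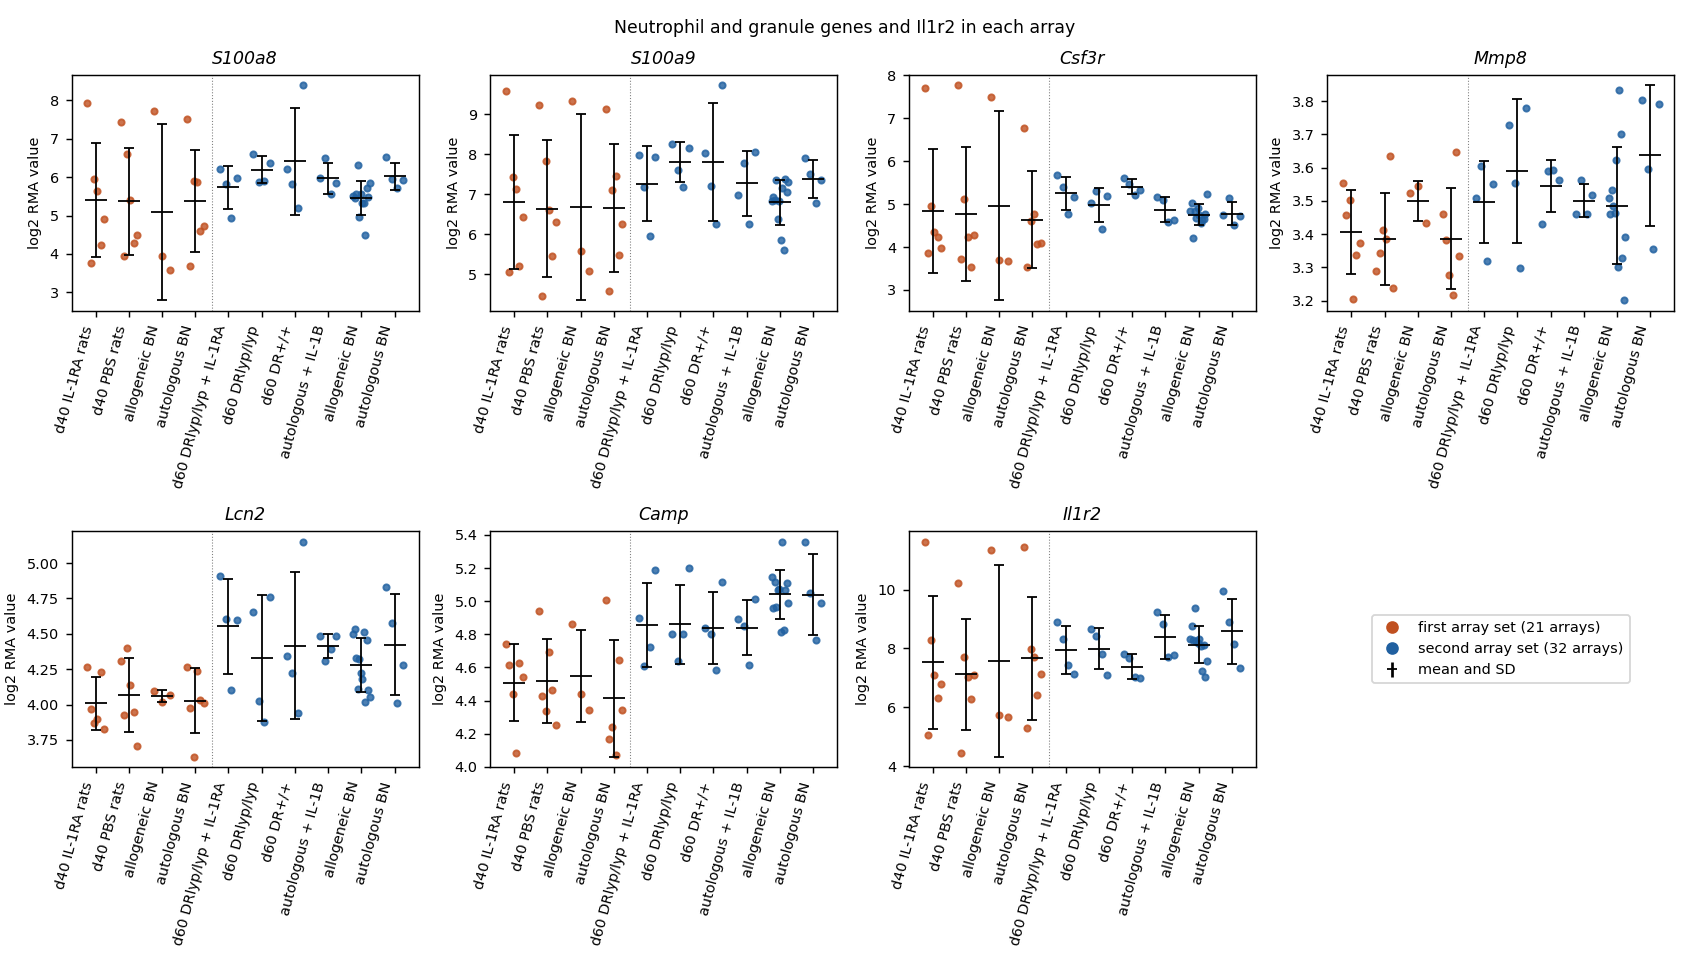
Log2 expression of S100a8, S100a9, Csf3r, Mmp8, Lcn2, Camp and Il1r2 (vertical axis, own scale per panel) in each of the 53 arrays by serum group (horizontal axis), the first array set left of the dotted line and the second right of it; points are arrays, bars the group mean and SD. In the first set 1 array per group stood highest for S100a8, S100a9, Csf3r and Il1r2, and all groups overlapped; in the second set d60 DR+/+ replicate 4 stood highest for S100a8, S100a9 and Lcn2.

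In the first set S100a8, S100a9, Csf3r and Il1r2 differed far more between arrays of 1 serum than between sera. S100a8 ran from 3.78 through a median of 5.28 to 7.93 with d40 serum of IL-1RA rats, from 3.94 through 4.96 to 7.45 with d40 serum of PBS rats, was 7.72, 3.96 and 3.57 with allogeneic serum, and ran from 3.69 through 5.302 to 7.51 with autologous serum. The 4 groups covered the same range, which spanned 20.6-fold over the 21 arrays. S100a9 ran from 5.05 through 6.80 to 9.59 with d40 serum of IL-1RA rats, from 4.45 through 6.46 to 9.24 with d40 serum of PBS rats, was 9.35, 5.59 and 5.10 with allogeneic serum, and ran from 4.59 through 6.69 to 9.12 with autologous serum. Its range was 35.1-fold, again with every group overlapping the others.

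The receptor genes had the same form. Csf3r ran from 3.86 through 4.29 to 7.70 with d40 serum of IL-1RA rats, from 3.53 through 4.26 to 7.77 with d40 serum of PBS rats, was 7.50, 3.69 and 3.68 with allogeneic serum, and ran from 3.53 through 4.35 to 6.76 with autologous serum. A single array in each group was above 6 and the others were below 5.2. Il1r2 ran from 5.06 through 6.94 to 11.63 with d40 serum of IL-1RA rats, from 4.44 through 7.06 to 10.21 with d40 serum of PBS rats, was 11.35, 5.72 and 5.68 with allogeneic serum, and ran from 5.295 through 7.43 to 11.46 with autologous serum. Its 146-fold range over the first set was wider than that of any of the 6 genes. The within-group SD was 1.54 for S100a8, 1.75 for S100a9, 1.51 for Csf3r and 2.26 for Il1r2, against a median of 0.217 over all probe sets.

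The high array was the one numbered 1 in every group. Arrays numbered 1 with d40 serum of IL-1RA rats, d40 serum of PBS rats, allogeneic serum and autologous serum had S100a9 at 9.59, 9.24, 9.35 and 9.12, and arrays numbered 2 had it at 5.05, 4.45, 5.59 and 4.59. For the other numbers S100a9 was at 7.42, 7.83 and 7.12 for number 3, 7.15, 6.60 and 7.46 for number 4, 5.22, 5.46 and 5.48 for number 5 and 6.45, 6.31 and 6.26 for number 6, in d40 serum of IL-1RA rats, d40 serum of PBS rats and autologous serum. Number 3 was above number 4 with both d40 sera and below it with autologous serum. Allogeneic array 3, at 5.10, did not share the level of number 3. The labels do not say what cultures of the same number had in common.

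The share of the variance that lay between replicate numbers put a size to this. Over the 18 arrays of the 3 groups with 6 numbers, 97.5% of the sum of squares of S100a9, 97.5% of S100a8, 95.6% of Csf3r and 96.8% of Il1r2 lay between numbers. Between the sera lay 0.230% for S100a9, 0.0186% for S100a8, 0.443% for Csf3r and 1.43% for Il1r2. Over all probe sets the medians were 48.9% between numbers and 6.95% between sera, so many genes followed the number and Csf3r had a larger share between numbers than 99.897% of probe sets, with the other 3 of these genes at a higher percentage. Mmp8 (45.7%), Lcn2 (41.4%) and Camp (62.1%) lay near the median of all probe sets. This split was chosen after the values were seen and carries no test.

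**Figure D2:**
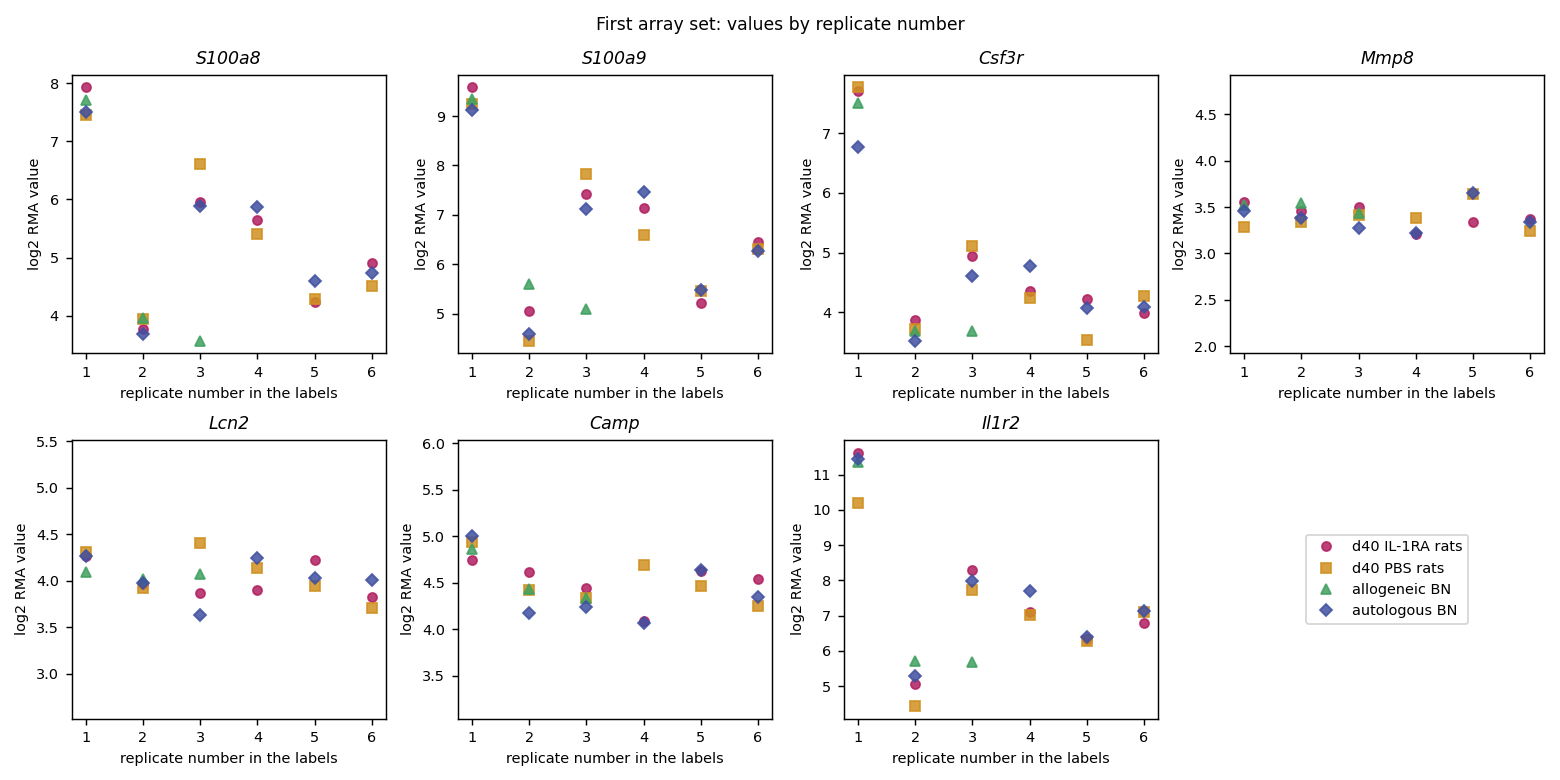
Log2 expression (vertical axis, own scale per panel) in the 21 arrays of the first set against the replicate number of the labels (horizontal axis), with a symbol per serum group. S100a8, S100a9, Csf3r and Il1r2 were highest in all 4 arrays numbered 1 (S100a9 9.12 to 9.59) and low in those numbered 2 (4.45 to 5.59), with the sera close together at each number except allogeneic array 3.

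Mmp8, Lcn2 and Camp stayed within narrow ranges in the first set. Mmp8 group means were 3.41 ± 0.126 with d40 serum of IL-1RA rats (SD, n = 6), 3.38 ± 0.138 with d40 serum of PBS rats (n = 6), 3.4997 ± 0.0592 with allogeneic serum (n = 3) and 3.39 ± 0.152 with autologous serum (n = 6). Lcn2 averaged 4.01 ± 0.188, 4.07 ± 0.261, 4.06 ± 0.0410 and 4.03 ± 0.229 in the same order of groups, and Camp 4.51 ± 0.231, 4.52 ± 0.254, 4.55 ± 0.278 and 4.41 ± 0.352. Neighbouring group means differed by less than the within-group SD of the set, which was 0.132 for Mmp8, 0.215 for Lcn2 and 0.283 for Camp. Over the 21 arrays Mmp8 spanned 1.36-fold, Lcn2 1.71-fold and Camp 1.92-fold. The 3 granule proteins therefore did not show the spread that the calgranulins and Csf3r showed in the same arrays.

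In the second set the ranges of the calgranulins were smaller, apart from 1 array. S100a8 was 6.22, 5.82, 4.93 and 5.99 with d60 DRlyp/lyp serum plus IL-1RA, 6.60, 5.89, 5.91 and 6.37 with d60 DRlyp/lyp serum, 6.22, 5.82, 5.20 and 8.39 with d60 DR+/+ serum, 5.97, 6.51, 5.55 and 5.85 with autologous serum plus IL-1B, 4.48 to 6.31 with a median of 5.50 with allogeneic serum, and 6.54, 5.95, 5.71 and 5.91 with autologous serum. S100a9 was 7.98, 7.19, 5.97 and 7.94 with d60 DRlyp/lyp serum plus IL-1RA, 8.27, 7.61, 7.20 and 8.16 with d60 DRlyp/lyp serum, 8.03, 7.20, 6.27 and 9.73 with d60 DR+/+ serum, 6.996, 7.78, 6.27 and 8.05 with autologous serum plus IL-1B, 5.61 to 7.38 with a median of 6.90 with allogeneic serum, and 7.92, 7.50, 6.78 and 7.36 with autologous serum. The groups overlapped, allogeneic serum holding the lowest arrays and d60 DR+/+ serum the highest.

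That highest array, d60 DR+/+ replicate 4, stood apart in several measures. It had the highest S100a8 (8.39), S100a9 (9.73) and Lcn2 (5.15) of the second set, its Il1r2 of 6.999 was the lowest of the second set, and its actin difference of 1.13 was the lowest of the second set. Its Csf3r (5.32), Mmp8 (3.56) and Camp (5.12) lay within the ranges of the other arrays. The part of RNA quality in these values was not tested. The differences of S100a8 and S100a9 with d60 DR+/+ serum are therefore given with and without it. Other results with that serum include it unless stated.

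Csf3r and Il1r2 had their own order of groups in the second set. Csf3r was 5.68, 5.39, 4.77 and 5.16 with d60 DRlyp/lyp serum plus IL-1RA, 5.01, 5.31, 4.42 and 5.19 with d60 DRlyp/lyp serum, 5.62, 5.47, 5.21 and 5.32 with d60 DR+/+ serum, 5.17, 5.09, 4.59 and 4.64 with autologous serum plus IL-1B, 4.22 to 5.22 with a median of 4.76 with allogeneic serum, and 4.73, 5.14, 4.52 and 4.73 with autologous serum. The 4 arrays with d60 DR+/+ serum were above all 4 with autologous serum, and the share of all probe sets so separated was not counted. Il1r2 was 8.89, 8.32, 7.44 and 7.13 with d60 DRlyp/lyp serum plus IL-1RA, 8.67, 8.41, 7.82 and 7.08 with d60 DRlyp/lyp serum, 7.81, 7.68, 7.03 and 6.999 with d60 DR+/+ serum, 9.24, 8.83, 7.72 and 7.79 with autologous serum plus IL-1B, 7.02 to 9.39 with a median of 8.21 with allogeneic serum, and 9.96, 8.89, 8.15 and 7.34 with autologous serum. Mean Il1r2 was lowest with d60 DR+/+ serum (7.38 ± 0.426, SD, n = 4) and highest with autologous serum (8.58 ± 1.11, n = 4), and the 2 groups overlapped.

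The granule proteins were again even. Group means ran from 3.49 with allogeneic serum to 3.64 with autologous serum for Mmp8, from 4.28 with allogeneic serum to 4.55 with d60 DRlyp/lyp serum plus IL-1RA for Lcn2, and from 4.84 with d60 DR+/+ serum to 5.04 with allogeneic and with autologous serum for Camp. Within-group SDs were 0.163 for Mmp8, 0.312 for Lcn2 and 0.196 for Camp, against a median of 0.256 over all probe sets, so the whole range of group means was below 2 within-group SDs for each. The within-group SD of S100a8 was 0.626, that of S100a9 0.786, that of Csf3r 0.288 and that of Il1r2 0.730. The difference in spread between the sets was not tested.

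The sera were compared within a set, in 1 limma fit of 10 cells, each a group in a set. No member was called at an adjusted p under 0.05 in any of the 10 comparisons, and none had an unadjusted p under 0.05 in any of them, with no other tool run. Because the fit shares 1 estimate of the spread per gene over both sets, the large spread of the first set widens the standard errors (SE) of S100a8, S100a9 and Csf3r in the second. The SE from a fit of only the arrays compared is therefore given for several of the larger differences.

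Serum of d60 DRlyp/lyp rats, set against autologous serum, left 0 of 6 members called where 0.0354% of all probe sets were called. S100a9 averaged 7.81 ± 0.5004 with d60 DRlyp/lyp serum and 7.39 ± 0.469 with autologous serum (SD, n = 4 each), a log2 difference of 0.42 (SE 0.827, limma adjusted p = 0.933), with an SE of 0.287 among these arrays alone (limma adjusted p = 0.871). The other members differed by -0.18 for Camp to 0.20 for Csf3r. Serum of d60 DR+/+ rats against autologous serum also left 0 of 6 called, where 1.35% of all probe sets were. Csf3r averaged 5.41 ± 0.177 with d60 DR+/+ serum and 4.78 ± 0.260 with autologous serum, a log2 difference of 0.63 (1.54-fold, SE 0.642, limma adjusted p = 0.666). Among these arrays alone its SE was 0.167 (limma adjusted p = 0.376). Il1r2 differed by -1.20 (SE 1.00, limma adjusted p = 0.579), with an SE of 0.474 among these arrays alone (limma adjusted p = 0.457). The groups overlapped for 5 of 6 members here, Csf3r being the exception, and for 6 of 6 in each other comparison. The share of all probe sets without overlap was not counted, so this separation is given as a description only.

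The calgranulins in d60 DR+/+ serum turned on replicate 4. S100a8 averaged 6.41 ± 1.39 with d60 DR+/+ serum and 6.03 ± 0.354 with autologous serum, a difference of 0.38, which was -0.28 without replicate 4 (SE 0.735, limma adjusted p = 0.842). S100a9 had a difference of 0.42, which was -0.22 without it (SE 0.868, limma adjusted p = 0.900), and Lcn2 one of -0.01, which was -0.26 without it (SE 0.184, limma adjusted p = 0.417). Csf3r kept its difference, at 0.65 without replicate 4. Monocyte genes moved in this comparison, Mpeg1 by 2.23 (SE 0.413, limma adjusted p = 0.00235) and Cd14 by 1.70 (SE 0.433, limma adjusted p = 0.0310) as the called 2 of 10 listed. Of 7 platelet genes, with a median difference of -1.22, Mmrn1 fell by 1.52 (limma adjusted p = 0.0141) and Gp5 by 1.22 (limma adjusted p = 0.0368), and of 7 natural killer cell genes Gzmb fell by 0.63 (limma adjusted p = 0.0262). None of these calls held in limma's fit of only the arrays compared. The mean log2 value of the 10 monocyte genes ran from 6.56 to 6.96 with d60 DR+/+ serum and from 6.09 to 6.46 with autologous serum. Their part in the Csf3r difference was not tested.

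Between the BB lines, d60 DRlyp/lyp serum against d60 DR+/+ serum, 0 of 6 members and 0% of all probe sets were called, with 1864 probe sets at an unadjusted p under 0.05. Csf3r was 4.98 ± 0.392 with d60 DRlyp/lyp serum and 5.41 ± 0.177 with d60 DR+/+ serum, a difference of -0.42 (SE 0.642, limma adjusted p = 0.984). Among these arrays alone the SE of Csf3r was 0.201. S100a9 differed by 0.00, at 7.81 with each serum, and by 0.64 without DR+/+ replicate 4 (SE 0.868, limma adjusted p = 0.869). S100a8 differed by -0.22, and by 0.44 without that array (SE 0.735, limma adjusted p = 0.896). Leaving out each array in turn, S100a9 ran from -0.51, without DR+/+ replicate 3, to 0.64, and S100a8 from -0.62, without DR+/+ replicate 3, to 0.44, DR+/+ replicate 4 being the 1 array whose removal turned the sign of S100a8. Il1r2 was 7.99 ± 0.704 with d60 DRlyp/lyp serum and 7.38 ± 0.426 with d60 DR+/+ serum, a difference of 0.61 (SE 1.00, limma adjusted p = 0.987). With the replicate number as a block, the SE was 0.192 for Il1r2, higher in 4 of 4 numbers, and 0.147 for Csf3r, lower in 4 of 4 numbers, each at a limma adjusted p of 0.683.

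Interleukin-1 was blocked or added in culture in 2 comparisons. Adding IL-1RA to d60 DRlyp/lyp serum, against that serum alone, left 0 of 6 members and 0% of all probe sets called (956 at an unadjusted p under 0.05). S100a9 averaged 7.27 ± 0.942 with d60 DRlyp/lyp serum plus IL-1RA and 7.81 ± 0.5004 with d60 DRlyp/lyp serum (SD, n = 4 each), a log2 difference of -0.54 (SE 0.827, limma adjusted p = 1.00). Among these arrays alone its SE was 0.387 (limma adjusted p = 0.994). It was lower with IL-1RA at all 4 replicate numbers, by the values above, although the numbers did not pair here by the rule given below. With the number as a block its SE was 0.175 (limma adjusted p = 0.310). S100a8 differed by -0.45 (SE 0.712, and 0.261 among these arrays alone). Csf3r differed by 0.26 (SE 0.642), Lcn2 by 0.22 (SE 0.189) and Il1r2 by -0.05 (SE 1.00). Adding IL-1B to autologous serum, against autologous serum alone, left 0 of 6 members and 0% of all probe sets called (1121 at an unadjusted p under 0.05). The differences were between -0.20 for Camp (SE 0.165) and 0.09 for Csf3r (SE 0.642), and -0.19 for Il1r2 (SE 1.00).

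Allogeneic BN serum was set against autologous BN serum in each set. In the second set 0 of 6 members were called, where 0.00966% of all probe sets were. S100a8 was 5.46 ± 0.449 with allogeneic serum (SD, n = 12) and 6.03 ± 0.354 with autologous serum (SD, n = 4), a log2 difference of -0.57 (SE 0.582, limma adjusted p = 0.645; SE 0.221 and limma adjusted p = 0.279 among these arrays alone). S100a9 was 6.80 ± 0.572 with allogeneic serum and 7.39 ± 0.469 with autologous serum, a difference of -0.59 (SE 0.675, limma adjusted p = 0.686; SE 0.277 and limma adjusted p = 0.345 among these arrays alone). In the first set 0 of 6 were called, where 1.07% of all probe sets were, with differences of -0.30 for S100a8 (SE 0.712), 0.00 for S100a9 (SE 0.827) and 0.32 for Csf3r (SE 0.642). The difference between the sets in this comparison passed for 0 of 6 members (limma adjusted p from 0.449 for Mmp8 to 0.949 for S100a8), where 216 probe sets of all passed.

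Serum of d40 DRlyp/lyp rats gave the smallest differences in S100a8. For d40 serum of IL-1RA rats against d40 serum of PBS rats 0 of 6 members were called, where 0.00322% of all probe sets were. S100a8 averaged 5.41 ± 1.49 with d40 serum of IL-1RA rats and 5.37 ± 1.40 with d40 serum of PBS rats (SD, n = 6 each), a difference of 0.04 (SE 0.582), and S100a9 differed by 0.16 (SE 0.675). With the replicate number as a block the SE of these differences fell to 0.136 for both, and limma adjusted p was 0.950 for S100a8 and 0.746 for S100a9. Il1r2 differed by 0.41 (SE 0.820; SE 0.176 with the block, limma adjusted p = 0.450).

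Against autologous serum, d40 serum of PBS rats left 0 of 6 members and 0% of all probe sets called (1100 at an unadjusted p under 0.05), and d40 serum of IL-1RA rats likewise 0 of 6 and 0% (213 at an unadjusted p under 0.05). S100a9 differed by -0.02 (SE 0.675) with d40 serum of PBS rats and by 0.14 (SE 0.675) with d40 serum of IL-1RA rats. Csf3r differed by 0.13 and 0.20 (SE 0.524 for each) in the same order. With the replicate number as a block the SEs were 0.161 and 0.133 for S100a9 and 0.176 and 0.143 for Csf3r. Il1r2 differed by -0.54 with d40 serum of PBS rats (SE 0.820, and 0.154 with the block, limma adjusted p = 0.352). With d40 serum of IL-1RA rats it differed by -0.13 (SE 0.820, and 0.130 with the block, limma adjusted p = 0.999). By the rule given below the numbers paired for d40 serum of IL-1RA rats and not for d40 serum of PBS rats. Both comparisons share the autologous arrays.

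**Figure D3:**
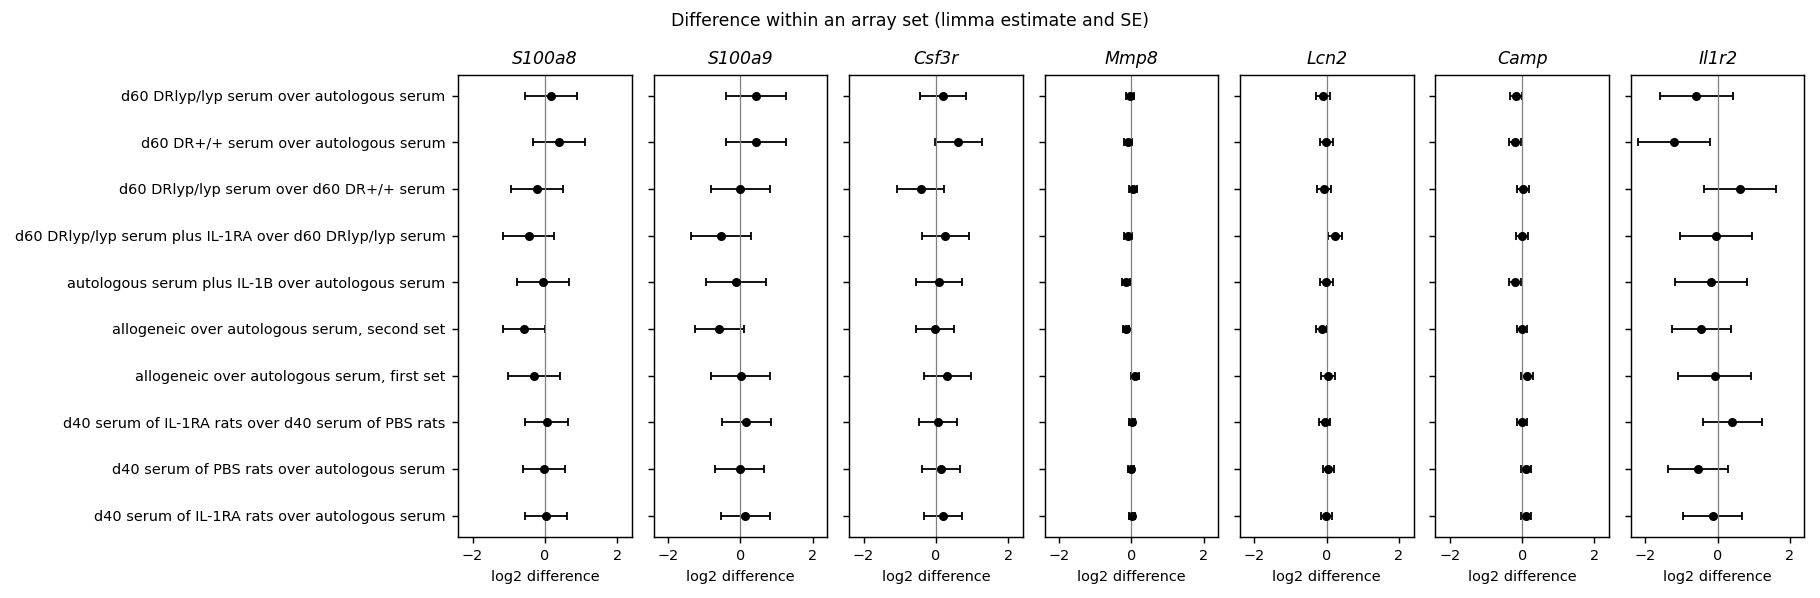
Log2 difference of each gene (horizontal axis) in the 10 comparisons within an array set (rows, the serum named first over the other), with points for limma's estimate and bars for its SE from the fit of all 53 arrays. The largest for a member was 0.63 for Csf3r in d60 DR+/+ over autologous serum, and Il1r2 reached -1.20 there (SE 1.00); no point passed an adjusted p under 0.05.

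Other neutrophil genes were counted from lists written with earlier results known. The azurophil granule list had 3 measured genes and that of other specific and gelatinase granules 6. Other surface and signalling genes numbered 9 and those of the G-CSF pathway 8. Of all these, 0 were called in any of the 10 comparisons. The 6 specific and gelatinase granule genes had a median log2 difference of 0.27 with d60 DRlyp/lyp serum and of 0.27 with d60 DR+/+ serum, each against autologous serum, where the medians of all probe sets were -0.02 and -0.05. The same autologous arrays enter both. Among 12 genes that interleukin-1 is known to induce, Ccl2, a monocyte-attracting chemokine, was the 1 called in these comparisons. Its difference was 2.20 with d60 DRlyp/lyp serum (limma adjusted p = 0.0322) and 2.45 with d60 DR+/+ serum (limma adjusted p = 0.00153). The call with d60 DR+/+ serum did not hold in limma's fit of only the arrays compared, where 0 probe sets were called. In that fit 2 probe sets were called with d60 DRlyp/lyp serum. Of the 12 interleukin-1 genes 0 were called with IL-1B added to autologous serum, at a median log2 difference of -0.09. IL-1RA added to d60 DRlyp/lyp serum also left 0 of the 12 called, at a median of -0.01.

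The relation of each member to Il1r2 was taken over arrays within a set, after group means were removed. In the first set the arrays numbered 1 stood apart, with Il1r2 from 10.21 to 11.63 against at most 8.28 in the other 17. Among those 17 arrays Il1r2 went with S100a9 (r = 0.934, rho = 0.941, permutation adjusted p = 6e-05 for r), S100a8 (r = 0.880, rho = 0.887, permutation adjusted p = 0.00051 for r) and Csf3r (r = 0.836, rho = 0.902, permutation adjusted p = 0.0017 for r), adjusted over 6 relations. It did not go detectably with Mmp8 (r = -0.193), Lcn2 (r = 0.0266) or Camp (r = -0.266). Arrays of 1 number were alike, so these p-values are too small. Over the 6 number means, taken from d40 serum of IL-1RA rats, d40 serum of PBS rats and autologous serum without the 3 allogeneic arrays, the order of Il1r2 was the order of S100a8, S100a9 and Csf3r (rho = 1.00 for each), with r of 0.971, 0.977 and 0.965 and an exact permutation p of 0.002778 for each (adjusted p = 0.005556).

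Over all 21 arrays of the first set, numbers 1 included, r with Il1r2 was 0.969 for S100a9, 0.963 for S100a8 and 0.952 for Csf3r (rho 0.966, 0.955 and 0.922), each with a two-sided permutation p of 1e-05, the smallest that 100000 resamples could give, and an adjusted p of 0.0001114 over 78 relations. Without the 2 arrays farthest in Il1r2 these r were 0.962, 0.950 and 0.924. Camp had r = 0.593 (adjusted p = 0.0425) but rho = 0.344 (adjusted p = 0.340), and r = 0.393 (adjusted p = 0.385) without those 2 arrays, so its relation rested on them. Lcn2 (r = 0.424, adjusted p = 0.148) and Mmp8 (r = 0.0876, adjusted p = 0.811) did not pass.

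In the second set none of the 6 relations to Il1r2 passed over 32 arrays. The values of r were 0.362 for Csf3r (rho 0.501), 0.277 for S100a8 (rho 0.329), 0.269 for Lcn2 (rho 0.298), 0.186 for S100a9 (rho 0.176), 0.0914 for Mmp8 (rho 0.0224) and -0.00721 for Camp (rho -0.0557), with adjusted permutation p from 0.166 to 0.973 for r and a smallest one of 0.0544 for rho, that of Csf3r. Without the 2 arrays farthest in Il1r2, r was 0.432 for Csf3r, 0.128 for S100a8 and 0.0858 for S100a9. Those 2 arrays did not include d60 DR+/+ replicate 4, which had the highest S100a8 and S100a9 and the lowest Il1r2 of the second set. The relations were not taken without that array, so how far they rest on it is not known. The difference in r between the sets was not tested, and Il1r2 spanned 146-fold in the first set and 7.77-fold in the second.

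**Figure D4:**
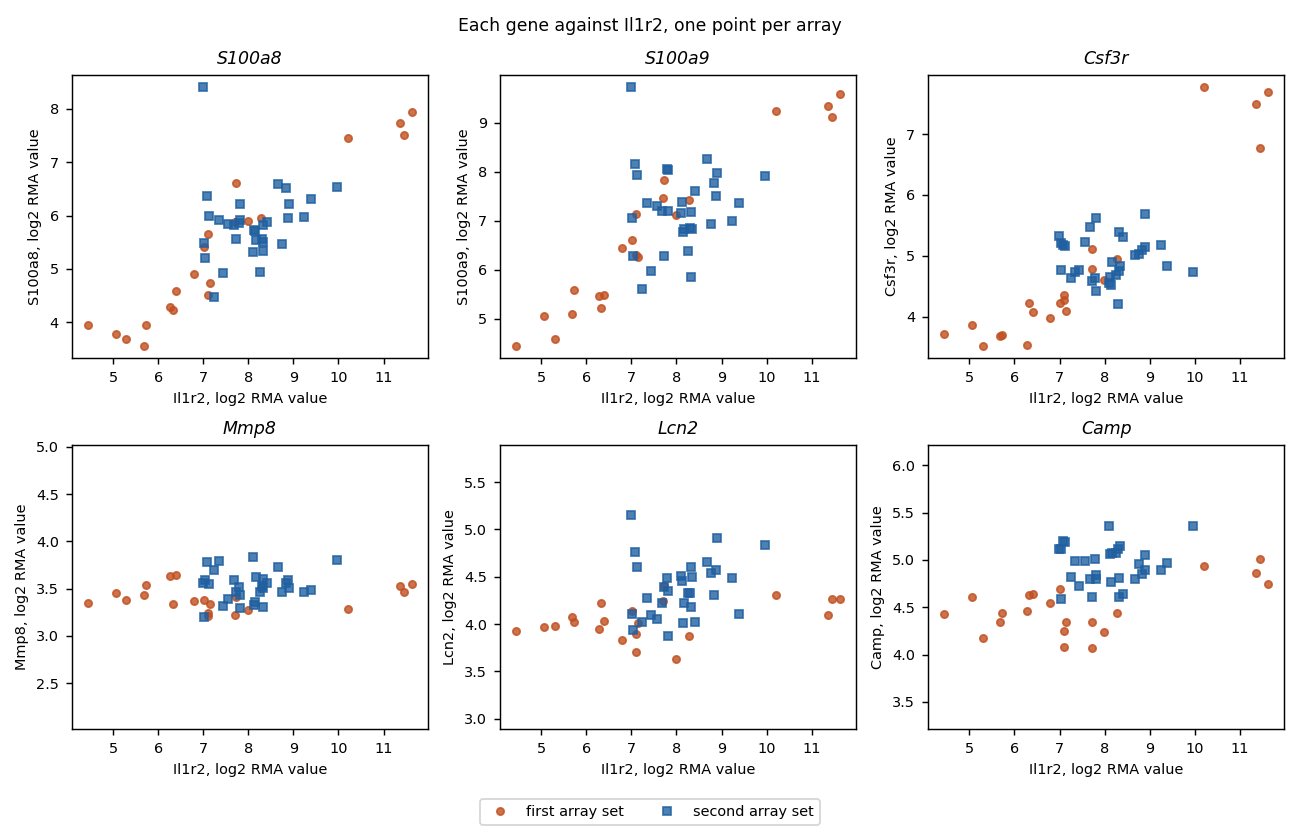
Log2 expression of each of the 6 genes (vertical axis, own scale per panel) against log2 expression of Il1r2 (horizontal axis), 1 point per array, circles for the 21 arrays of the first set and squares for the 32 of the second, as deposited. S100a8, S100a9 and Csf3r climbed with Il1r2 in the first set, with 4 arrays apart above an Il1r2 of 10, while in the second set the points formed a cloud between 6.999 and 9.96; 1 square stands alone at 8.39 for S100a8 and 9.73 for S100a9.

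The members also went together with one another. S100a8 and S100a9 were the closest pair in both, with r = 0.986 over 21 arrays (rho 0.970) and r = 0.888 over 32 (rho 0.821), each at a permutation adjusted p of 0.0001114. Csf3r went with S100a9 in the first set (r = 0.928, rho 0.917, permutation adjusted p = 0.0001114) and did not pass in the second (r = 0.341, rho 0.290, permutation adjusted p = 0.148). In the second set S100a9 went with Lcn2 (r = 0.721, rho 0.619, permutation adjusted p = 0.000702) and with Camp (r = 0.693, rho 0.651, permutation adjusted p = 0.000845), and Lcn2 with Camp (r = 0.672, rho 0.629, permutation adjusted p = 0.00184). Without the 2 arrays farthest from the median of the second gene of the pair these were 0.573, 0.709 and 0.627. For Lcn2 those arrays were d60 DR+/+ replicate 4 (5.15) and replicate 1 of d60 DRlyp/lyp serum plus IL-1RA (4.91). Number shares were again large among the 16 second-set arrays of 4 groups, at 83.0% for Camp, 67.6% for S100a9, 67.2% for Il1r2 and 58.8% for Lcn2 against a median of 36.2% over all probe sets, so p-values over second-set arrays are also too small. The differences in r between the sets were not tested. In the first set S100a9 had r = 0.436 with Lcn2 and 0.473 with Camp, both short of the threshold (permutation adjusted p = 0.148 and 0.140).

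Markers of monocytes moved with the calgranulins in the first set. Cd14, the lipopolysaccharide co-receptor, had r = 0.790 with S100a9 (rho 0.766, permutation adjusted p = 0.000702) and Csf1r, the macrophage colony-stimulating factor receptor, r = 0.721 (rho 0.595, permutation adjusted p = 0.00537). In the second set the same pairs had r = -0.0642 (rho 0.00953) and r = 0.290 (rho 0.357), and neither passed. The mean log2 value of the 10 monocyte genes ran from 5.42 to 6.44 with d40 serum of IL-1RA rats, 5.49 to 6.28 with d40 serum of PBS rats, 5.38 to 6.15 with allogeneic serum and 5.43 to 6.34 with autologous serum of the first set. The part of monocytes in the relations was not tested. The actin difference had r = 0.181 with S100a9 in the first set and -0.213 in the second, and neither passed.

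Likeness of other genes to S100a9 over arrays, group means removed, is given as a description with no test, since arrays of a number share their level. In the first set 4 of 6 other specific and gelatinase granule genes had r above 0.8, where 0.528% of all probe sets did. They were Slpi, a protease inhibitor of leukocytes (0.949), Chi3l1, a chitinase-like glycoprotein (0.924), Mmp9, a gelatinase (0.872), and Adam8, a membrane metalloprotease (0.833). Of the rest, Itgam had 0.714 and Cebpe -0.102. In the second set r was 0.662 for Slpi, 0.463 for Chi3l1, 0.332 for Mmp9, 0.330 for Cebpe, -0.0528 for Adam8 and -0.102 for Itgam. The list's median was 0.852 in the first set and 0.331 in the second, against 0.0186 and 0.154 over all probe sets. The 3 defensins listed for azurophil granules had a median of 0.336 in the first set and 0.253 in the second.

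The 8 other surface and signalling genes of neutrophils had a median r with S100a9 of 0.592 in the first set, 2 of them above 0.8. C5ar1, the complement C5a receptor, had r = 0.902, Ptafr, the receptor of platelet-activating factor, 0.887, and Cxcr2, a chemokine receptor, 0.777, while the related receptor Cxcr1 had 0.348, the arginase Arg1 -0.0168 and Hdc, which makes histamine, -0.688. The 7 G-CSF pathway genes other than Csf3r had a median of 0.108 in the first set and 0.0382 in the second. In the first set they ran from 0.835 for Csf3 to -0.545 for Jak2. The 11 genes induced by interleukin-1, with Il1r2 left out, had a median of 0.764 in the first set. Il1b itself had 0.978 and the chemokine Cxcl2 0.959, while Nfkbia had -0.249 and Nfkbiz -0.424. The 10 monocyte genes had a median of 0.701. Lyz2, a lysozyme, had 0.973 and Mpeg1, which macrophages use to pierce bacterial membranes, 0.812. At the other end Ms4a7 had 0.375, Cd163 0.0942 and Fcgr3a 0.0319. In the second set none of these lists had a gene above 0.8, and the values were 0.121 for C5ar1, 0.380 for Il1b and 0.424 for Lyz2.

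Most T-cell genes ran against S100a9 in both sets. The 8 T-cell genes had a median r with S100a9 of -0.627 in the first set and -0.578 in the second. Cd3e, a chain of the T-cell receptor complex, was at -0.730 and -0.759. Lck was at -0.253 and -0.640, and Cd5 at -0.491 and -0.173. Cd4 went the other way in the first set, at 0.491, and was at -0.0647 in the second. The 7 platelet genes had a median of -0.490 in the first set and 0.424 in the second. Medians in the first and the second set were 0.403 and 0.115 for natural killer cells, 0.314 and 0.347 for B cells, 0.565 and 0.380 for erythroid genes, and 0.234 and 0.431 for eosinophils, basophils and mast cells. In that last list Siglec5, a sialic-acid-binding lectin, was at 0.977 in the first set.

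The named genes most like each member over the 53 arrays, group means removed, were fixed by rank. For S100a8 they were S100a9 (r = 0.964), Siglec5 (0.925) and Slpi (0.914), and for S100a9 they were S100a8, Siglec5 (0.912) and Slpi (0.887). For Csf3r they were Steap4, a metalloreductase (0.944), Lrg1, a leucine-rich glycoprotein of granulocytes (0.937), and Clec7a, the beta-glucan receptor (0.930). The values for Csf3r rest on the first set, since Steap4 had 0.987 there and 0.117 in the second. For Il1r2 they were Lrg1 (0.947), Il1b (0.944) and G0s2, an inhibitor of triglyceride lipase (0.923), with r of 0.808, 0.660 and 0.691 in the second set.

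The 3 granule proteins had no granule gene among their nearest. Mmp8 was nearest to Colgalt1 (0.703), Gpt2 (0.700) and Dvl3 (0.691), Lcn2 to Slc12a7 (0.761), Mrgprf (0.731) and Tas2r121 (0.711), and Camp to Eppk1 (0.789), Ptprn (0.783) and Btbd2 (0.780). These genes are a collagen-modifying enzyme, an aminotransferase and a Wnt signalling protein for Mmp8, an ion transporter, an orphan receptor and a taste receptor for Lcn2, and a plakin, a phosphatase-like membrane protein and a BTB-domain protein for Camp. The probe sets of Mmp8, Lcn2 and Camp lie below the median of all probe sets, as given above.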

How the data were processed

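RNA of 53 PBMC cultures was hybridised to Affymetrix rat arrays, 1 array per culture. The deposited table holds log2 values of 31099 probe sets. RMA and Partek 6.2 are named per the submitters' processing notes, with neither roles nor scan dates given in the sources used here. After removal of 57 controls, 31042 probe sets were tested, of which 20826 had 1 symbol. The highest correlation between a pair of arrays was 0.996, so none was a duplicate. Precision is limited by the number of arrays.

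The 2 array sets came from Ward clustering without the probe sets of the 6 genes and Il1r2, and complete linkage placed 53 of 53 arrays alike. limma 3.58.1 in R 4.3.3 fitted 10 cells of group and set, with trended moderated variances and Benjamini-Hochberg adjustment over all probe sets. The fit was tested on simulated data. Correlations used Python 3.11.15 and scipy 1.17.1 with 100000 permutations within groups, and figures matplotlib 3.10.9. The table was used as deposited.

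Named were the 6 genes and Il1r2, up to 4 called genes per list (where none was called, up to 2 by p were eligible and are not named), and the 3 genes most like each member. Other list genes, named for their r with S100a9, were chosen after their values were seen. The members and the lists were chosen with earlier results of these data known. The alternatives were pooled sets, the set as a block, a second quantile normalization, median centring, a filter on low values, only the arrays compared, the replicate number as a block and leaving out each array. The number means, the relation without number 1, the variance shares and the values without d60 DR+/+ replicate 4 were chosen after seeing the data.

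Numbers were taken to pair arrays where residuals of every same-numbered pair correlated above 0.1. The lowest r was 0.175 between the d60 sera, 0.401 between the d40 sera and 0.129 between d40 serum of IL-1RA rats and autologous serum, and it was 0.0706 for IL-1RA in culture, 0.0514 for d40 serum of PBS rats, 0.0875 and -0.231 for allogeneic serum in the first and second set. The other 3 comparisons share no numbers.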

Additional observations from a re-analysis of the deposited data

Results flagged for a closer look

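Csf3r stood apart in 1 array of each d40 group of the first set. It was 7.70 in replicate 1 with d40 serum of IL-1RA rats, where the gap to the next array was 0.718 of the group's range, and 7.77 in replicate 1 with d40 serum of PBS rats, where it was 0.6253. Both gaps exceed Dixon's 95% critical value for 6 samples. Over 56 groups of values tested there were 2 such arrays, and chance gives about 1 in 20. Il1r2 was 11.63 and 10.21 in the same arrays, and the allogeneic and autologous arrays numbered 1 had Csf3r at 7.50 and 6.76.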

How the results depend on the processing

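In 1136 values of a member or Il1r2 under other settings, 186 changed sign and 0 were called; the smallest adjusted p of a member was 0.0540 (Camp, 0.28, allogeneic over autologous serum with the sets pooled) and that of Il1r2 was 0.352. The relation of Camp to Il1r2 in the first set, 0.593 over 21 arrays, was 0.550 with median centring (permutation adjusted p = 0.0693), 0.393 without the 2 arrays farthest in Il1r2 (0.385), 0.684 over the number means (exact permutation adjusted p = 0.313) and -0.266 without number 1 (0.544), and the cause was not tested. The other relations to Il1r2 kept their side of the threshold.

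With the replicate number as a block, 0 members were called in any of the 7 comparisons that share numbers, and it changed no call of a member. S100a9 had -0.54 (SE 0.175, adjusted p = 0.310) for IL-1RA in culture, where the numbers did not pair by the rule used, and 0.16 (SE 0.136) between the d40 sera, where they did.

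Counts of probe sets called depended on the setting. For d60 DR+/+ over autologous serum, 418 were called, 0 with only the arrays compared, 987 with the set as a block, and 43 to 1118 without 1 array (lowest without autologous replicate 7, highest without replicate 9). For d60 DRlyp/lyp over autologous serum the count was 11, with 2 to 51 under other settings and 1 to 11 without 1 array. Allogeneic over autologous serum had 3 in the second set (0 to 780 without 1 array) and 332 in the first (0 to 978), against 12614 with the sets pooled and 0 with the set as a block. The d40 sera had 1, and 3 with the replicate block; d40 serum of IL-1RA rats over autologous serum had 0, and 4 with it; d40 serum of PBS rats over autologous serum had 0, and 2 without autologous replicate 1; IL-1B had 0, and 1 without autologous replicate 9; the d60 sera had 0, and 1 after a second quantile normalization. Depth does not apply to arrays; the mean levels of Csf3r, Mmp8, Lcn2 and Camp lie below the median probe set, and detection calls were not used here.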
